A study of Equus caballus with 19 samples.

Results

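The mitosis genes are 34 genes whose products condense and separate chromosomes, start mitosis and cytokinesis, or switch on the transcription of that programme. Their rows were picked by gene name, from a list drawn up with earlier results of these data known, and all 34 were found among the 29196 gene names of each deposited table. SMC2 was listed at 0 in 5 of the 9 libraries of the second batch, so it is described apart and the counts are over the other 33 genes. A cell that prepares to divide switches these genes on late in its cycle, under FOXM1 and the MYB-MuvB complex, and a resting cell keeps most of them silent through the DREAM complex. Cyclin B bound to CDK1 starts mitosis, kinesins and kinetochore proteins move the chromosomes, and the anaphase-promoting complex (APC/C) ends mitosis by marking cyclin B for destruction. Tenocytes, the resident cells of tendon, divide rarely in the adult and proliferate once they are explanted and grown in serum.

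The data were 19 RNA sequencing libraries of wild-type adult equine tenocytes from the superficial digital flexor tendon, in 8 independent lines. All cells were kept in 3D gels of bovine type 1 collagen in serum-containing medium and harvested at day 14. Lines 1 to 5 formed the first batch, each as an untreated control and with 1 nM IL-1β, a pro-inflammatory cytokine (10 libraries). Lines 6 to 8 formed the second batch, each untreated, with the same dose of IL-1β, or with that dose and 100 ng/ml IL1Ra, the antagonist of the IL-1 receptor (9 libraries). IL1Ra alone was not analysed here, and the passage of each line was not given, so a difference between lines can also be one of passage. Values are normalised counts, that is, gene counts scaled between the libraries of a batch, and changes are log2-fold changes of the normalised count + 1 from limma. A gene was called differentially expressed (DE) when its log2-fold change was 1 or more in either direction and its adjusted p was under 0.05, with Benjamini-Hochberg adjustment over the 14719 or 16705 genes tested in the first or second batch. In such bulk libraries fewer dividing cells and less mitotic mRNA per cell cannot be told apart.

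Normalised counts summed to 43.4 to 49.2 M per library (first batch) and 25.0 to 34.6 M (second batch). Within the second batch the sums were 25.0 to 28.6 M in the controls, 27.7 to 34.6 M with IL-1β and 26.7 to 30.0 M with IL-1β + IL1Ra. Of 12 tenocyte and fibroblast markers, 11 were found in the tables, and COL1A1 and COL1A2 (type I collagen) were abundant whereas TNMD (tenomodulin, a marker of mature tendon) was at or under 1.0 normalised count in every library. The sum of these markers was 1128000 to 1908000 in the controls and 452100 to 891400 with IL-1β in the first batch, where 7 of the 10 tested fell (COL1A1, COL1A2, MKX, SCX, THBS4, THY1 and TNC, list median log2-fold change −2.23, against 7.9% of all genes tested that were DE and lower). DCN (decorin) went the other way, with a higher mean (log2-fold change 0.73, not DE) and a higher count in each of the 5 lines. In the second batch the sum was 321000 to 894400 in the controls, 340800 to 497100 with IL-1β and 183000 to 833400 with IL-1β + IL1Ra. The list median for IL-1β was −1.44, DCN again had a higher mean (log2-fold change 1.605), and by limma 0 of the 10 were DE. An unadjusted p under 0.05 was found for 2 (5.6% of all genes tested were so and lower). The leukocyte gene PTPRC reached at most 6.46 and CD3E, CSF1R and AIF1 at most 1.07, 2.11 and 0. Summed over 10 leukocyte markers the level was 60.2 to 2076 in the controls and 312 to 3714 with IL-1β in the first batch, nearly all of it CD14 and CD68, without which it was at most 42.7 and 58.3. In the same batch the sum of 8 endothelial markers was 688 to 1728 in the controls and 99.4 to 246 with IL-1β, with CDH5, KDR and TEK at or under 10 throughout. Most of the control sum was ERG, with 588 to 1634 in the controls and 39.3 to 159 with IL-1β. Of the 4 endothelial markers tested 2 had a lower and 2 a higher mean with IL-1β, and PECAM1 was DE and higher with the line as a block. The sum of 7 pericyte and smooth muscle markers was 43820 to 127700 in the controls and 14260 to 34340 with IL-1β in the first batch. In the second batch it overlapped, with 10010 to 65420 in the controls, 11130 to 24100 with IL-1β and 3482 to 26100 with IL-1β + IL1Ra. In the same order the endothelial sum there was 559 to 1101, 105 to 133 and 97.1 to 361. The leukocyte sum there was 231 to 1272, 676 to 3054 and 734 to 2055. The part of these marker changes in the results for the mitosis genes was not tested.

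The comparison of IL-1β with control asks what 14 days of the cytokine do to the tenocyte transcriptome. In the first batch each of the 33 mitosis genes had a lower mean with IL-1β than in the controls, against 50.3% of all genes tested. The median log2-fold change of the 33 genes was −1.29 and the range ran from −1.82 for CENPF to −0.15 for AURKA, while the median of all genes tested was 0.00. With limma 8 genes fell and none rose: SMC4, BUB1, BUB1B, TTK, KIF11, KIF20A, CENPF and ECT2. These are 24.2% of the 33, whereas 7.9% of all genes tested were DE and lower. With the tenocyte line as a block, which compares each line with itself, 24 genes fell (72.7%, against 10.2% of all genes tested). The count of 8 was 3 without line 1, 4 without line 2, 4 without line 4, 7 without line 3 and 6 without line 5, and SMC4, CENPF and ECT2 were called each time. TTK was not called without line 1, KIF11 not without line 1, 2 or 4, KIF20A only without line 5 when a line was left out, and BUB1 and BUB1B never. An unadjusted p under 0.05 was found for 24 genes (20.6% of all genes tested were so and lower). In 24 of the 33 genes IL-1β was lower than control in each of the 5 lines (25.0% of all genes tested), and in 4 genes, SMC4, TTK, CENPF and ECT2, the 2 groups did not overlap (10.2% of all genes tested).

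Each of the 33 genes in the second batch, too, had a lower mean with IL-1β (50.7% of all genes tested), with a median log2-fold change of −2.17 and a range from −3.08 for CENPF to −0.57 for AURKA. Only SMC4 was DE (3.03% of the 33, against 0.0718% of all genes tested that were DE and lower), and CENPF was called as well once the line was a block (6.06%, against 2.59%). Neither call was made without line 7 or without line 8, which leave 2 lines, nor was SMC4 when the IL-1β + IL1Ra libraries were left out of the fit. Without line 7 or line 8 no gene of the 16705 tested was DE for IL-1β without the block. With the block 8 genes rose and 3 fell without line 8, and none was called without line 7. With the IL-1β + IL1Ra libraries left out, 6 of all genes tested were DE and lower. An unadjusted p under 0.05 was found for 22 of the 33 genes (5.6% of all genes tested were so and lower), 23 were lower in each of the 3 lines (18.9%) and 11 did not overlap between the groups (7.61%). The median was −1.18 without line 6 and −3.21 without line 7. The batches were normalised separately, so the difference in size between them was not tested.

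**Figure D1:**
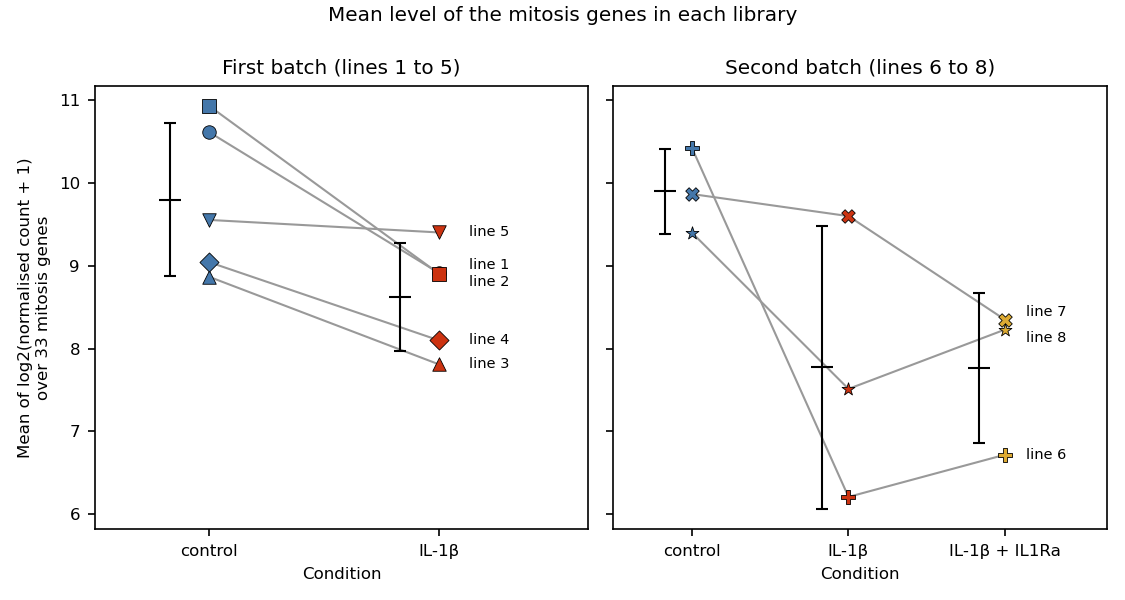
Mean of log2(normalised count + 1) over the 33 mitosis genes in each library (y axis) by condition (x axis), with grey lines joining the libraries of a line and black bars giving the mean ± SD of a condition. With IL-1β every line was below its own control: the difference ran from −2.02 (line 2) to −0.15 (line 5) among lines 1 to 5 and from −4.22 (line 6) to −0.27 (line 7) among lines 6 to 8.

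The lines differed widely in how far these genes were lower with IL-1β. Averaged over the 33 genes, IL-1β minus control was −1.70, −2.02, −1.06, −0.94 and −0.15 on the log2 scale in lines 1 to 5 (mean −1.17 ± 0.73, SD, n = 5) and −4.22, −0.27 and −1.89 in lines 6 to 8 (mean −2.12 ± 1.99, SD, n = 3). Lines 1, 2, 6 and 8 were lower in all 33 genes, and lines 3 and 4 in 32, the exception being AURKA. Line 5 was lower in 24 genes and higher in 9, which were NCAPH, CDK1, CCNB1, PLK1, AURKA, AURKB, CENPA, NUSAP1 and UBE2C. Line 7 was lower in 23 genes and higher in 10, which were CCNB1, CCNB2, PLK1, AURKA, AURKB, BIRC5, CENPA, PRC1, UBE2C and MYBL2. Even in these lines CENPF and SMC4 differed by more than 1, with −1.07 and −1.12 in line 5 and −1.86 and −1.65 in line 7.

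The lines also differed in the untreated controls at day 14, and mostly in the same order from gene to gene. Line 2 had the highest control level of 31 genes and line 3 the lowest of 25, and line 6 had the highest of 32 genes in the second batch. With IL-1β line 5 was highest in 30 genes and line 3 lowest in 28, and in the second batch line 7 was highest in all 33 and line 6 lowest in 31. Line 6 thus went from the highest control level to the lowest level with IL-1β. The ratio of the highest to the lowest library had a median over the genes of 4.29 in the controls and 3.36 with IL-1β in the first batch, and of 2.11, 10.6 and 3.24 in the controls, with IL-1β and with IL-1β + IL1Ra in the second. SMC4 had the smallest ratio in the treated groups, at 1.22, 1.29 and 1.13, and AURKB the largest, at 4.99, 51.4 and 6.9.

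**Figure D2:**
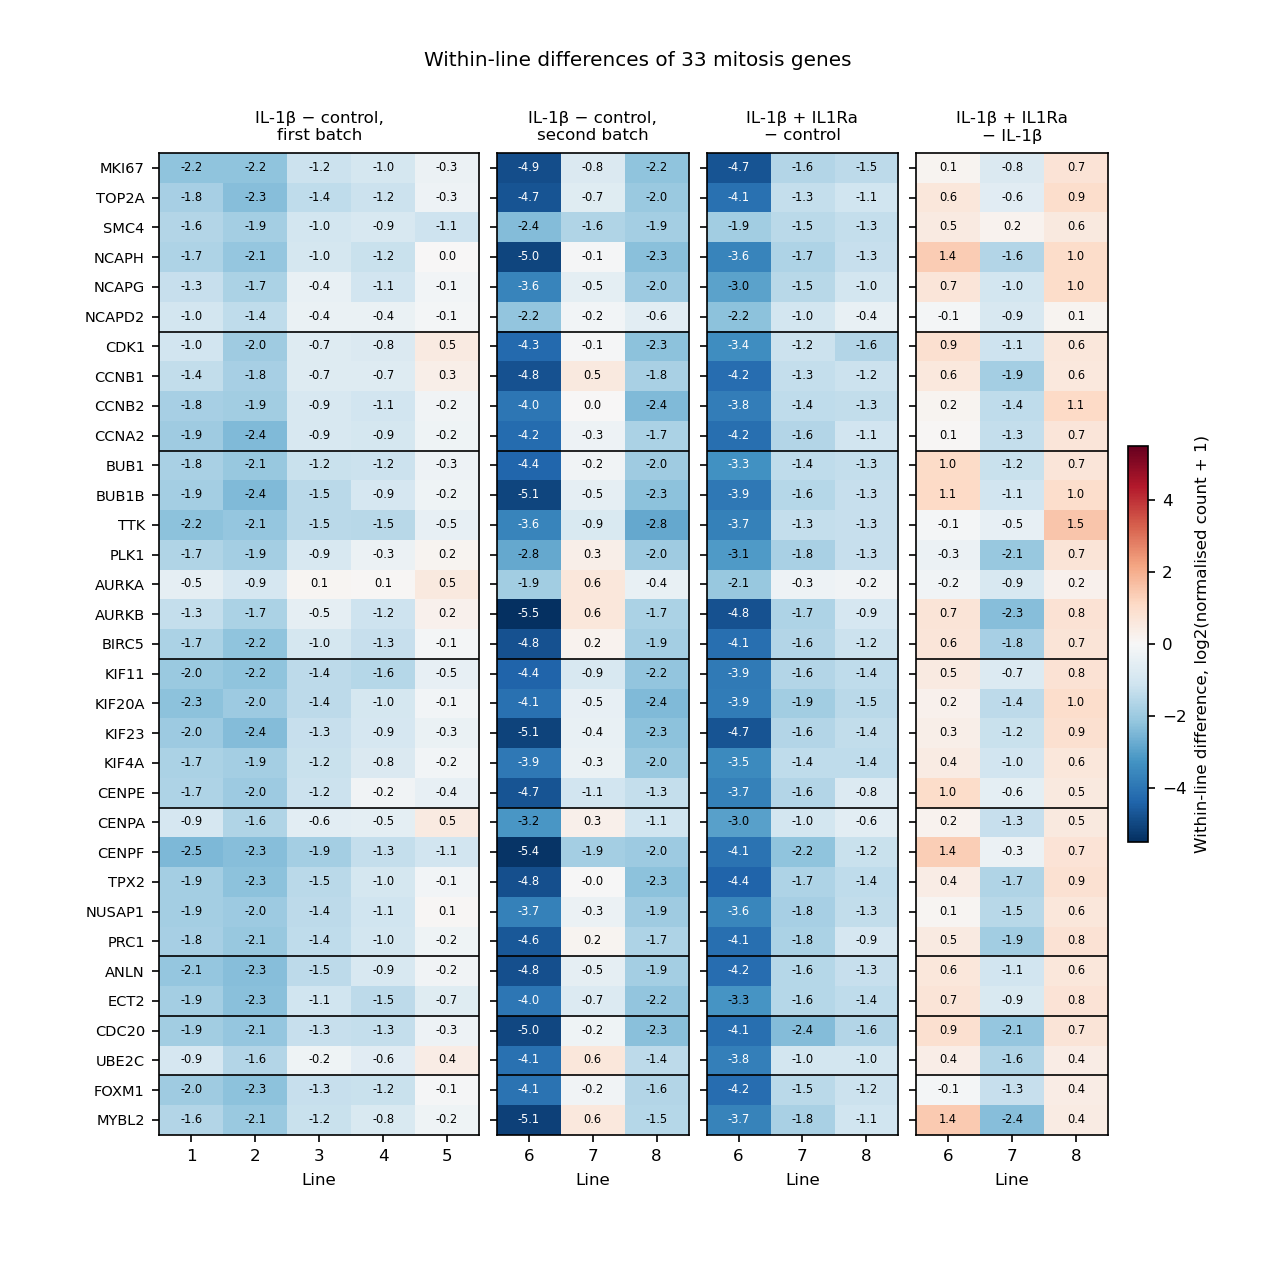
Within-line differences of log2(normalised count + 1) for the 33 mitosis genes (rows, grouped by role from chromosome condensation at the top to transcription factors at the bottom) in each line (columns), in 4 blocks for the comparisons; blue is lower and red higher. Line 6 is dark blue with IL-1β (mean −4.22) and lines 5 and 7 are pale (−0.15 and −0.27), while in the last block lines 6 and 8 are mostly red (0.51 and 0.72) and line 7 blue (−1.25).

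Among the genes of chromosome condensation and chromatin, SMC4, the ATPase core that condensin complexes share, fell in both batches. SMC4 had 5053, 6042, 2783, 2595 and 2939 normalised counts in the controls of lines 1 to 5, and 1646, 1651, 1384, 1398 and 1353 with IL-1β. Each IL-1β library was below each control, and the IL-1β libraries were close together while the controls of lines 1 and 2 stood above the rest. The change was log2-fold change −1.30 ± 0.23 (SE), adjusted p 0.00256 in the first batch. SMC4 counts in lines 6 to 8 were 4007, 2629 and 2407 in the controls, 769, 838 and 651 with IL-1β and 1080, 954 and 957 with IL-1β + IL1Ra. SMC4 again did not overlap between control and IL-1β (log2-fold change −1.97 ± 0.22 (SE), adjusted p 0.0155). With IL-1β SMC4 levels were alike in lines whose other mitosis genes differed widely, such as lines 6 and 7.

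MKI67 encodes Ki-67, the coat protein of mitotic chromosomes that is widely used to mark cycling cells. MKI67 had 3679, 3962, 692, 1102 and 1852 normalised counts in the controls of lines 1 to 5, and 792, 859.8, 308, 569 and 1500 with IL-1β. Every line was lower with IL-1β, the groups overlapped, and line 5 differed least. MKI67 was not DE in the first batch (log2-fold change −1.37 ± 0.54 (SE), adjusted p 0.0832) with all 5 lines, and was with the line as a block (adjusted p 0.0108) or, without the block, when line 3 was left out. MKI67 counts in lines 6 to 8 were 1994, 1242 and 1251 in the controls, 67.4, 713 and 271 with IL-1β and 73.8, 405 and 455 with IL-1β + IL1Ra. Line 6 was the lowest and line 7 the highest of the IL-1β libraries, all 3 of which were below the controls (log2-fold change −2.62 ± 0.92 (SE), adjusted p 0.318). TOP2A, the topoisomerase that untangles sister chromatids, had 3222 ± 2253 normalised counts in the controls and 1102 ± 503 with IL-1β (mean ± SD, n = 5) in the first batch (log2-fold change −1.41 ± 0.51 (SE), adjusted p 0.0650, or 0.00726 with the block), and it too was called when line 3 was left out. TOP2A in the second batch had 2611 ± 774 normalised counts in the controls and 689 ± 680.4 with IL-1β (mean ± SD, n = 3) and was not DE (log2-fold change −2.49 ± 0.89 (SE), adjusted p 0.324). The condensin I subunits NCAPH, NCAPG and NCAPD2 had log2-fold changes of −1.20, −0.93 and −0.65 (first batch) and of −2.47, −2.05 and −0.96 (second batch). None of the 3 was DE, and NCAPH was with the block in the first batch (adjusted p 0.0184).

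SMC2, the partner of SMC4 in the condensin ring, behaved differently in the tables. In the first batch it had 3009, 3866, 1254, 299 and 1532 normalised counts in the controls of lines 1 to 5 and 1256, 80.1, 788, 901 and 1368 with IL-1β. Lines 1, 2, 3 and 5 were lower with IL-1β and line 4 was higher, and the groups overlapped. The second batch gave 796, 1519 and 325 in the controls of lines 6 to 8, whereas SMC2 was listed at 0 with IL-1β in all 3 lines, and with IL-1β + IL1Ra was listed at 0 in lines 6 and 7 and had 685 in line 8. A listed 0 in these files can be a failed estimate for a gene, and SMC4 had at least 651 normalised counts in the same libraries, so no fold is given for SMC2. It was not DE in any comparison without the block (adjusted p 0.327 with lines 1 to 5 and 0.145 for IL-1β with lines 6 to 8, where the block gave 0.0452).

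CDK1 is the kinase that drives entry into mitosis, and cyclins A2, B1 and B2 are its partners. None of the 4 genes was DE in either batch, and with the line as a block CCNA2 and CCNB2 were in the first (adjusted p 0.0179 and 0.0143). CCNA2 had 860.5 ± 631 normalised counts in the controls and 304 ± 135 with IL-1β (mean ± SD, n = 5) in the first batch (log2-fold change −1.29 ± 0.50 (SE), adjusted p 0.0811) and 831 ± 345 normalised counts in the controls and 283 ± 302 with IL-1β (mean ± SD, n = 3) in the second (log2-fold change −2.07 ± 0.85 (SE), adjusted p 0.404). CCNB2 had 357 ± 257 normalised counts in the controls and 135 ± 47.8 with IL-1β (mean ± SD, n = 5) in the first batch (log2-fold change −1.17 ± 0.48 (SE), adjusted p 0.0942). CCNB2 counts in lines 6 to 8 were 490.1, 528 and 389.9 in the controls and 30.5, 539 and 72.0 with IL-1β. Lines 6 and 8 were thus far below their controls and line 7 level with its own. CDK1 and CCNB1, chosen after their values were seen, had log2-fold changes of −0.81 and −0.85 in the first batch, where line 5 was higher with IL-1β for both (CDK1 529 and 744, CCNB1 874 and 1079 normalised counts). CDK1 in the second batch was 1555, 1189 and 1167 in the controls and 80.1, 1146 and 241 with IL-1β, and CCNB1 was 1433, 1145 and 771 and 51.1, 1659 and 224.

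The mitotic kinases and spindle checkpoint genes held called genes as well as the gene with the smallest difference. TTK, the kinase (MPS1) that starts the spindle checkpoint, fell in the first batch. TTK had 426, 623, 179, 186 and 199.8 normalised counts in the controls of lines 1 to 5, and 89.7, 142, 64.2, 64.9 and 145 with IL-1β. The groups did not overlap (log2-fold change −1.56 ± 0.41 (SE), adjusted p 0.0177), and lines 2 and 5 had the highest counts with IL-1β. TTK counts in lines 6 to 8 were 787, 369 and 259 in the controls, 63.3, 204 and 36.5 with IL-1β and 59.3, 149 and 108 with IL-1β + IL1Ra. All second-batch IL-1β libraries of TTK were below all controls, yet it was not DE (log2-fold change −2.42 ± 0.69 (SE), adjusted p 0.213). BUB1B, which encodes the checkpoint protein BUBR1, had 931 ± 607 normalised counts in the controls and 328 ± 153 with IL-1β (mean ± SD, n = 5) in the first batch (log2-fold change −1.39 ± 0.47 (SE), adjusted p 0.0498) and 868 ± 340.4 normalised counts in the controls and 234 ± 269 with IL-1β (mean ± SD, n = 3) in the second (log2-fold change −2.60 ± 0.90 (SE), adjusted p 0.310). The first-batch call of BUB1B sat at the threshold and was not made when any 1 line was left out, with a pseudocount of 0.5, without the filter on low counts or without the variance trend. BUB1, the kinase that recruits checkpoint proteins to kinetochores, fell in the first batch (log2-fold change −1.31 ± 0.41 (SE), adjusted p 0.0378), and BIRC5 (survivin) did so with the block only (adjusted p 0.0577 without it and 0.0138 with it).

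AURKA, the kinase of centrosome maturation, had the smallest difference of the 33 genes in both batches and is described here because of that. AURKA had 791, 1152, 315, 343 and 461 normalised counts in the controls of lines 1 to 5, and 554, 601, 335, 361 and 675 with IL-1β. Lines 1 and 2 were lower with IL-1β (log2 differences −0.51 and −0.94), lines 3 and 4 slightly higher (0.09 and 0.07) and line 5 higher (0.55). The groups overlapped (log2-fold change −0.15 ± 0.37 (SE), adjusted p 0.802), and without line 2 the mean of AURKA was higher with IL-1β (log2-fold change 0.05). AURKA counts in lines 6 to 8 were 737, 541 and 407 in the controls, 198, 826 and 304 with IL-1β and 174, 445 and 358 with IL-1β + IL1Ra. Lines 6 and 8 were lower and line 7 higher with IL-1β (log2-fold change −0.57 ± 0.56 (SE), adjusted p 0.815), and without line 6 the log2-fold change was 0.10. The 95% interval of the log2-fold change of AURKA was −0.96 to 0.67 (first batch) and −1.85 to 0.71 (second batch), so in the second batch the interval holds both no change and a log2-fold change of −1. PLK1, the polo-like kinase of mitotic entry, and AURKB, the kinase of the chromosomal passenger complex, had log2-fold changes of −0.91 and −0.90 (first batch) and of −1.48 and −2.19 (second batch), and neither was DE with or without the block. AURKB had the widest spread, with 11.8, 608 and 78.6 normalised counts with IL-1β in lines 6 to 8 against 568, 391 and 262 in their controls.

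**Figure D3:**
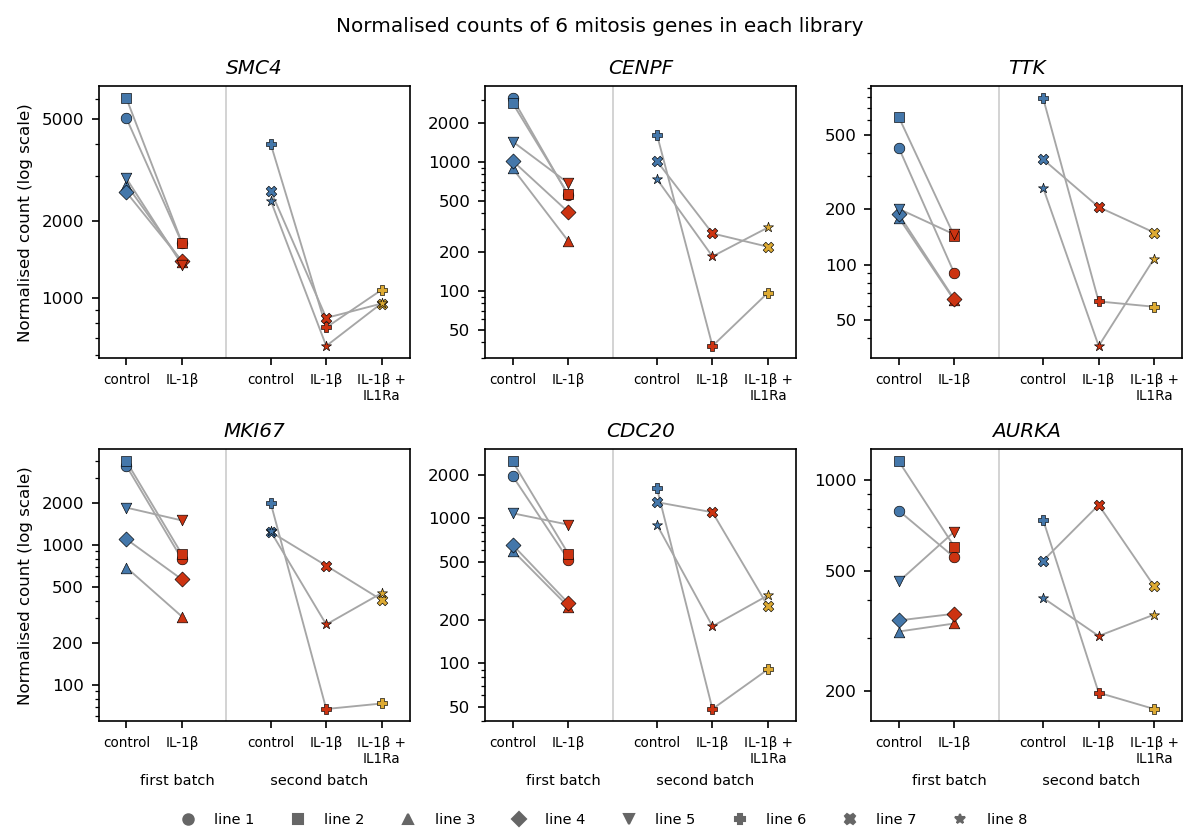
Normalised counts (y axis, log scale) of SMC4, CENPF, TTK, MKI67, CDC20 and AURKA in each library by condition (x axis), first batch left and second batch right of the vertical line in each panel, with grey lines joining the libraries of a line. SMC4 falls to a narrow range with IL-1β (1353 to 1651 in the first batch), whereas MKI67 with IL-1β ranges from 67.4 in line 6 to 713 in line 7, and AURKA lines cross.

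The 5 kinesin motors were lower with IL-1β in each line of both batches. KIF11, the motor (Eg5) that pushes spindle poles apart, fell in the first batch. KIF11 had 2179, 3046, 719, 869 and 1010 normalised counts in the controls of lines 1 to 5, and 535, 649.5, 266, 296 and 735 with IL-1β. Lines 1 and 2 had the highest controls, line 5 differed least, and the groups overlapped (log2-fold change −1.54 ± 0.44 (SE), adjusted p 0.0256). KIF11 counts in lines 6 to 8 were 2401, 1376 and 964 in the controls, 113, 746 and 214 with IL-1β and 159, 448 and 369.7 with IL-1β + IL1Ra. No IL-1β library of KIF11 reached a control there (log2-fold change −2.48 ± 0.70 (SE), adjusted p 0.213). KIF20A, a motor of cytokinesis, also fell in the first batch (log2-fold change −1.36 ± 0.42 (SE), adjusted p 0.0357). KIF23, the motor of the centralspindlin complex, had 1106 ± 758 normalised counts in the controls and 376 ± 166 with IL-1β (mean ± SD, n = 5) in the first batch (log2-fold change −1.38 ± 0.49 (SE), adjusted p 0.0564, or 0.0108 with the block). KIF23 in the second batch had 1223 ± 467 normalised counts in the controls and 355 ± 430.1 with IL-1β (mean ± SD, n = 3) (log2-fold change −2.59 ± 1.02 (SE), adjusted p 0.387). The chromokinesin KIF4A and the kinetochore motor CENPE were DE in the first batch with the block only (adjusted p 0.0134 and 0.0215).

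Of the kinetochore and spindle proteins, CENPF, a large kinetochore protein made in G2, had the largest difference of the 33 genes in both batches. CENPF had 3106, 2852, 891, 1018 and 1437 normalised counts in the controls of lines 1 to 5, and 552, 561, 244, 409 and 685 with IL-1β. All IL-1β libraries were below all controls (log2-fold change −1.82 ± 0.40 (SE), adjusted p 0.00772). CENPF counts in lines 6 to 8 were 1627, 1012 and 734 in the controls, 37.3, 278 and 185 with IL-1β and 96.7, 219 and 309.7 with IL-1β + IL1Ra. The groups did not overlap there either, line 6 was lowest with IL-1β, and the call depended on the block (log2-fold change −3.08 ± 0.75 (SE), adjusted p 0.158, or 0.0413 with the block). TPX2, the activator of aurora A on the spindle, had 1856 ± 1266 normalised counts in the controls and 680 ± 356 with IL-1β (mean ± SD, n = 5) in the first batch (log2-fold change −1.34 ± 0.52 (SE), adjusted p 0.0772, or 0.0116 with the block). TPX2 in lines 6 to 8 was 2090, 1438 and 1148 in the controls and 72.2, 1403 and 237 with IL-1β, where line 7 was level with its control (log2-fold change −2.38 ± 1.02 (SE), adjusted p 0.431). The spindle proteins NUSAP1 and PRC1 had log2-fold changes of −1.27 and −1.31 in the first batch and were DE with the block (adjusted p 0.0147 and 0.00799), PRC1 also without it after rescaling or with a filter at 50 normalised counts. CENPA, the histone H3 variant that marks centromeres, had −0.63 and was not DE with it (adjusted p 0.113).

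ECT2, the exchange factor that activates RhoA at the division plane, fell in the first batch. ECT2 had 1596, 2277, 598, 792 and 856 normalised counts in the controls of lines 1 to 5, and 439, 462, 276, 288 and 544 with IL-1β. The highest IL-1β library, line 5, was below the lowest control, line 3 (log2-fold change −1.48 ± 0.36 (SE), adjusted p 0.0124). ECT2 in the second batch had 1334 ± 711 normalised counts in the controls and 313 ± 266 with IL-1β (mean ± SD, n = 3), with no overlap and no call (log2-fold change −2.29 ± 0.58 (SE), adjusted p 0.175, or 0.0548 with the block). ANLN (anillin), the scaffold of the contractile ring, had 2439 ± 1678 normalised counts in the controls and 843 ± 404 with IL-1β (mean ± SD, n = 5) in the first batch (log2-fold change −1.39 ± 0.48 (SE), adjusted p 0.0529, or 0.0129 with the block). ANLN in the second batch had 2203 ± 1123 normalised counts in the controls and 610 ± 669 with IL-1β (mean ± SD, n = 3) (log2-fold change −2.40 ± 0.87 (SE), adjusted p 0.332). ANLN was called in the first batch without the block once the libraries were scaled to equal sums or equal upper quartiles.

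Of the APC/C regulators, CDC20, the activator that triggers anaphase, had 1951, 2462, 598, 654 and 1081 normalised counts in the controls of lines 1 to 5 and 519, 570.4, 246, 260.1 and 902 with IL-1β. Each line was lower and line 5 differed least (log2-fold change −1.38 ± 0.48 (SE), adjusted p 0.0540, or 0.00664 with the block), and CDC20 was called without the block once the libraries were scaled to equal sums. CDC20 counts in lines 6 to 8 were 1604, 1289 and 900.1 in the controls, 48.3, 1098 and 179.8 with IL-1β and 90.8, 247 and 294 with IL-1β + IL1Ra. Line 7 kept most of its control level with IL-1β and not with IL-1β + IL1Ra (log2-fold change −2.52 ± 1.00 (SE), adjusted p 0.387 for IL-1β). UBE2C, the ubiquitin-conjugating enzyme of the APC/C, had 788 ± 560.2 normalised counts in the controls and 470.5 ± 235 with IL-1β (mean ± SD, n = 5) in the first batch and was not DE (log2-fold change −0.59 ± 0.53 (SE), adjusted p 0.441, 0.125 with the block). UBE2C in lines 6 to 8 was 1298, 1026 and 574 in the controls and 73.8, 1575 and 214 with IL-1β, so that line 7 was higher and lines 6 and 8 lower (log2-fold change −1.64 ± 1.06 (SE), adjusted p 0.645).

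The transcription factors FOXM1 and MYBL2 (B-Myb), which drive mitotic genes, were lower too, and were called with the block in the first batch only. FOXM1 had 359 ± 202 normalised counts in the controls and 139.7 ± 87.2 with IL-1β (mean ± SD, n = 5) in the first batch and was lower in each line (log2-fold change −1.35 ± 0.49 (SE), adjusted p 0.0617, or 0.0140 with the block). MYBL2 had 2129 ± 1316 normalised counts in the controls and 877 ± 446 with IL-1β (mean ± SD, n = 5) and was lower in each line as well (log2-fold change −1.20 ± 0.48 (SE), adjusted p 0.0905, or 0.00951 with the block). FOXM1 in lines 6 to 8 was 498, 337 and 188 in the controls and 28.9, 294 and 60.7 with IL-1β (log2-fold change −1.96 ± 0.89 (SE), adjusted p 0.453). MYBL2 there was 1685, 1341 and 694 and 47.4, 1993 and 237 (log2-fold change −2.03 ± 1.17 (SE), adjusted p 0.579). In line 7 MYBL2 was above its control and FOXM1 slightly below, while lines 6 and 8 were far below for both.

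**Figure D4:**
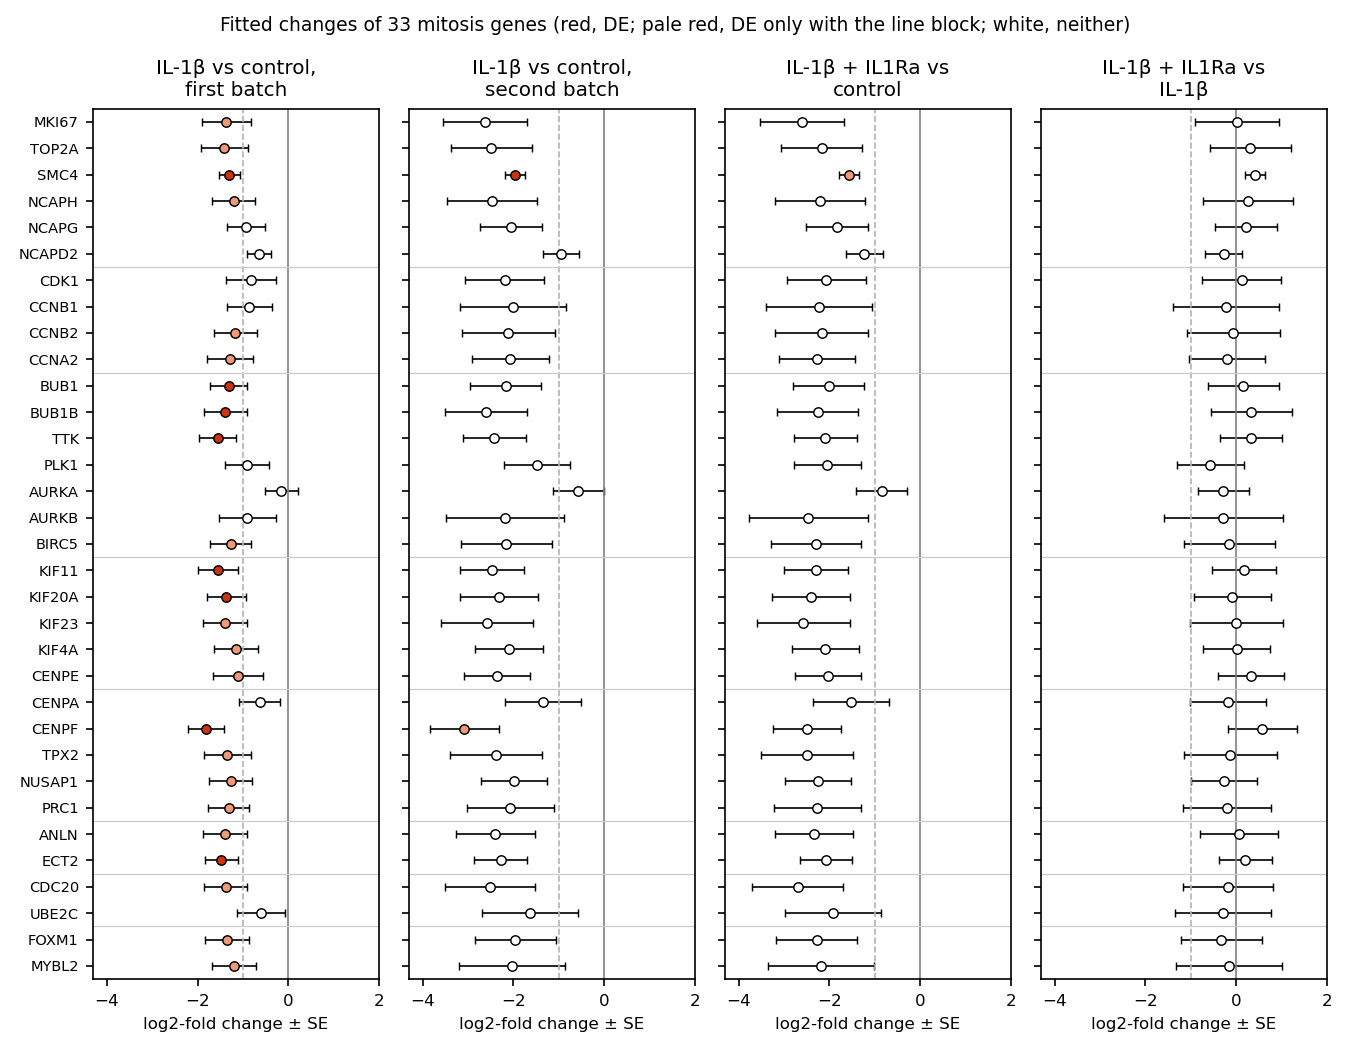
Fitted log2-fold change ± SE (x axis) of the 33 mitosis genes (y axis, in the order of roles) in the 4 comparisons, with DE genes in red, genes DE only with the tenocyte line as a block in pale red, a solid line at 0 and a dashed line at −1. In the first batch 8 genes are red and 16 pale red. In the second batch the estimates lie lower (median −2.17) with wider errors, and in the last panel they lie on both sides of 0.

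The order of the genes was similar in both batches. Over the 33 genes, which share the libraries of each batch, the log2-fold changes of the first and second batch had a Pearson r of 0.86 and a Spearman rho of 0.75, given as a description. Of the 6 smallest changes in each batch 4 were the same genes, AURKA, CENPA, NCAPD2 and UBE2C. Of the 6 largest, 2 were shared, CENPF and TOP2A.

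Setting IL-1β + IL1Ra against control asks how far the antagonist brings treated cells back to the control state. Each of the 33 genes still had a lower mean than in the controls (48.9% of all genes tested), in each of the 3 lines (19.0%). The median log2-fold change was −2.21, with a range from −2.71 for CDC20 to −0.85 for AURKA, and 32 genes did not overlap between the groups (5.96% of all genes tested), AURKA being the exception. With limma 0 of the 33 genes were DE (0.0% of all genes tested were DE and lower), and with the line as a block SMC4 was (3.03%, against 0.0419%). An unadjusted p under 0.05 was found for 25 of the 33 genes (2.92% of all genes tested were so and lower). SMC4 had 3015 ± 867 normalised counts in the controls and 997 ± 71.8 with IL-1β + IL1Ra (mean ± SD, n = 3), which gave log2-fold change −1.56 ± 0.22 (SE), adjusted p 0.120, or 0.0267 with the block. That call was not made without line 7 or without line 8, where no gene of the 16705 tested was DE with the block. The median was −1.39 without line 6.

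CDC20 had the largest difference from control with the antagonist (1264 ± 352 normalised counts in the controls and 211 ± 106 with IL-1β + IL1Ra (mean ± SD, n = 3), log2-fold change −2.71 ± 1.00 (SE), adjusted p 0.822), and MKI67 was next (log2-fold change −2.60 ± 0.92 (SE), adjusted p 0.822). For the transcription factors the values were −2.28 for FOXM1 and −2.19 for MYBL2, with adjusted p 0.829 and 0.967. Other members named by role had log2-fold changes of −2.17 (TOP2A), −2.27 (CCNA2), −2.18 (CCNB2), −2.09 (TTK), −2.26 (BUB1B), −2.30 (KIF11) and −2.58 (KIF23). For CENPF, TPX2, ANLN, ECT2 and UBE2C they were −2.50, −2.50, −2.34, −2.08 and −1.93. None of these was DE with or without the block.

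Set against IL-1β alone, the antagonist gave no call for any mitosis gene, nor without the block for any of the 16705 genes tested. By limma 0 of the 33 genes were DE with or without the block (0.0% of all genes tested were DE and lower). With the block 1 of all genes tested was DE, and it was higher. None of the 33 had an unadjusted p under 0.05, whereas 464 of all genes tested did in either direction (1.26% were so and lower). None was lower in each of the 3 lines (16.8% of all genes tested). The means of 17 genes were lower (48.9% of all genes tested) and of 16 higher with IL1Ra, and the median log2-fold change was −0.06, which was −0.46 without line 8 and 0.64 without line 7. The lines went opposite ways. Averaged over the 33 genes, IL-1β + IL1Ra minus IL-1β was 0.51 in line 6, −1.25 in line 7 and 0.72 in line 8 (mean −0.01 ± 1.08, SD, n = 3). In line 6 the antagonist library lay between IL-1β and control in 28 genes and below both in 5, in line 8 it lay between them in all 33, and in line 7 it was below both in 32. A difference between lines was not tested, since each line had 1 library per condition. These comparisons share their libraries, so their counts are not independent of each other.

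SMC4 was the only mitosis gene higher than with IL-1β alone in each of the 3 lines (15.6% of all genes tested were so), and its groups did not overlap (3.12% of all genes tested were higher without overlap). The counts were 769, 838 and 651 with IL-1β, 1080, 954 and 957 with IL-1β + IL1Ra. The difference was not called (log2-fold change 0.41 ± 0.22 (SE), adjusted p 1.00, 0.598 with the block). Intervals for the other genes were wide: the 95% interval of the log2-fold change was −2.10 to 2.14 for MKI67, −1.14 to 2.31 for CENPF and −2.84 to 2.52 for MYBL2. A change of 2-fold in either direction was therefore within the interval for these 3 genes.

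Further genes of the cell cycle were read from lists of the same pathway. Of 64 other mitosis genes, 57 had a lower mean with IL-1β in the first batch (50.3% of all genes tested had), 15 fell (7.9% of all genes tested) and 1 rose, with a median log2-fold change of −0.97. With the block 30 fell (10.2% of all genes tested) and 1 rose. The named genes were PIMREG, a regulator of the metaphase to anaphase transition (228 ± 138 normalised counts in the controls and 37.0 ± 17.7 with IL-1β (mean ± SD, n = 5), log2-fold change −2.54 ± 0.48 (SE), adjusted p 0.00361), and SAPCD2, a protein of spindle orientation (48.4 ± 29.9 normalised counts in the controls and 7.17 ± 2.48 with IL-1β (mean ± SD, n = 5), log2-fold change −2.45 ± 0.42 (SE), adjusted p 0.00227). With IL-1β the SAPCD2 counts were 4.97 to 10.9, mostly under the filter level of 10. SAPCD2 met the filter by its controls (24.1 to 95.5), so the size of its change is uncertain. The other 13 that fell were ASPM, CENPK, CEP55, CKAP2, KIF15, KIF18A, KNL1, KNSTRN, NUF2, PKMYT1, SGO2, SPC24 and STMN1. The gene that rose was UBE2S, which extends ubiquitin chains for the APC/C (log2-fold change 1.14 ± 0.34, adjusted p 0.0302), named here after its values were seen. In the second batch 60 of the 64 were lower with IL-1β, with a median of −1.86. By limma 0 were DE there (6 fell with the block, and 31 had an unadjusted p under 0.05, against 2.59% and 5.6% of all genes tested that were so and lower). With IL-1β + IL1Ra 62 were lower than in the controls, with a median of −1.86, 0 DE by limma and 37 at an unadjusted p under 0.05 (2.92% of all genes tested were so and lower).

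DNA replication genes act in S phase, ahead of mitosis. All 32 had a lower mean with IL-1β in both batches (50.3% and 50.7% of all genes tested had), with a median log2-fold change of −0.64 in the first and −1.05 in the second, against −1.29 and −2.17 for the mitosis genes. By limma 0 were DE in either batch, against 7.9% and 0.0718% of all genes tested that were DE and lower. An unadjusted p under 0.05 was found for 14 and 12 of them (20.6% and 5.6% of all genes tested were so and lower), MCM5 fell in the first with the block, and the difference between the 2 lists was not tested. With IL-1β + IL1Ra all 32 were again lower than in the controls (median −1.32, 0 DE by limma, 20 at an unadjusted p under 0.05, against 2.92% of all genes tested that were so and lower). Of 13 G1 cyclins, CDKs and E2F factors, 1 was DE in the first batch (7.9% of all genes tested were DE and lower). This was E2F7, a repressor of the E2F family, which fell (231 ± 77.9 normalised counts in the controls and 96.8 ± 52.8 with IL-1β (mean ± SD, n = 5), log2-fold change −1.32 ± 0.34 (SE), adjusted p 0.0170). The list median was −0.38 (first batch) and −0.79 (second batch). In the second batch limma gave 0 DE and 2 at an unadjusted p under 0.05 (5.6% of all genes tested were so and lower). Of 12 genes of condensin II and cohesin, 1 was DE in the first batch (7.9% of all genes tested were DE and lower). This was the condensin II subunit NCAPG2, which fell (1364 ± 680.3 normalised counts in the controls and 605 ± 162 with IL-1β (mean ± SD, n = 5), log2-fold change −1.08 ± 0.31 (SE), adjusted p 0.0260). The list median was −0.15 (first batch) and −0.40 (second batch), with 0 DE by limma in the latter and 3 at an unadjusted p under 0.05 (5.6% of all genes tested were so and lower).

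CDK inhibitors hold back the kinases that lead into S phase and mitosis, and 7 were tested. CDKN1A (p21) rose in the first batch: it had 5824, 6201, 4932, 4774 and 6922 normalised counts in the controls of lines 1 to 5 and 25140, 16370, 22690, 12730 and 18240 with IL-1β. Every IL-1β library was above every control (log2-fold change 1.71 ± 0.18 (SE), adjusted p 0.000193). CDKN2B (p15) rose as well, from 506 ± 304 to 1411 ± 341 (mean ± SD, n = 5, log2-fold change 1.60 ± 0.31 (SE), adjusted p 0.00417). CDKN3, a phosphatase of CDKs that is itself made in G2 and mitosis, fell (139 ± 75.6 normalised counts in the controls and 52.2 ± 18.6 with IL-1β (mean ± SD, n = 5), log2-fold change −1.29 ± 0.40 (SE), adjusted p 0.0338). Of the 14719 genes tested in this batch 722 were DE and higher and 1163 DE and lower. CDKN1B, CDKN1C, CDKN2C and CDKN2D were not DE, with log2-fold changes of 0.39, −0.40, −0.95 and −0.44. CDKN1A in the second batch was 2215, 4558 and 5429 in the controls of lines 6 to 8, 4878, 20970 and 12180 with IL-1β and 2718, 13400 and 9091 with IL-1β + IL1Ra. Each line was highest with IL-1β, and neither CDKN1A nor CDKN2B was DE for IL-1β (adjusted p 0.475 and 0.0878) unless the line was a block (0.0240 and 0.0163). With the block 432 of the 16705 genes tested were DE and higher there. In line 7 the CDKN1A count with IL-1β was the highest of the batch, and in that line the mean difference of the mitosis genes was −0.27. In the first batch line 1 had the highest CDKN1A count with IL-1β, and there the mean difference was −1.70. A relation between CDKN1A and the mitosis genes over the lines was not tested. The other 5 inhibitors were not DE in the second batch, and with IL-1β + IL1Ra 0 of the 7 were DE by limma, with 2 at an unadjusted p under 0.05. Of all 16705 genes tested 948 had such a p in that comparison, in either direction.

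**Figure D5:**
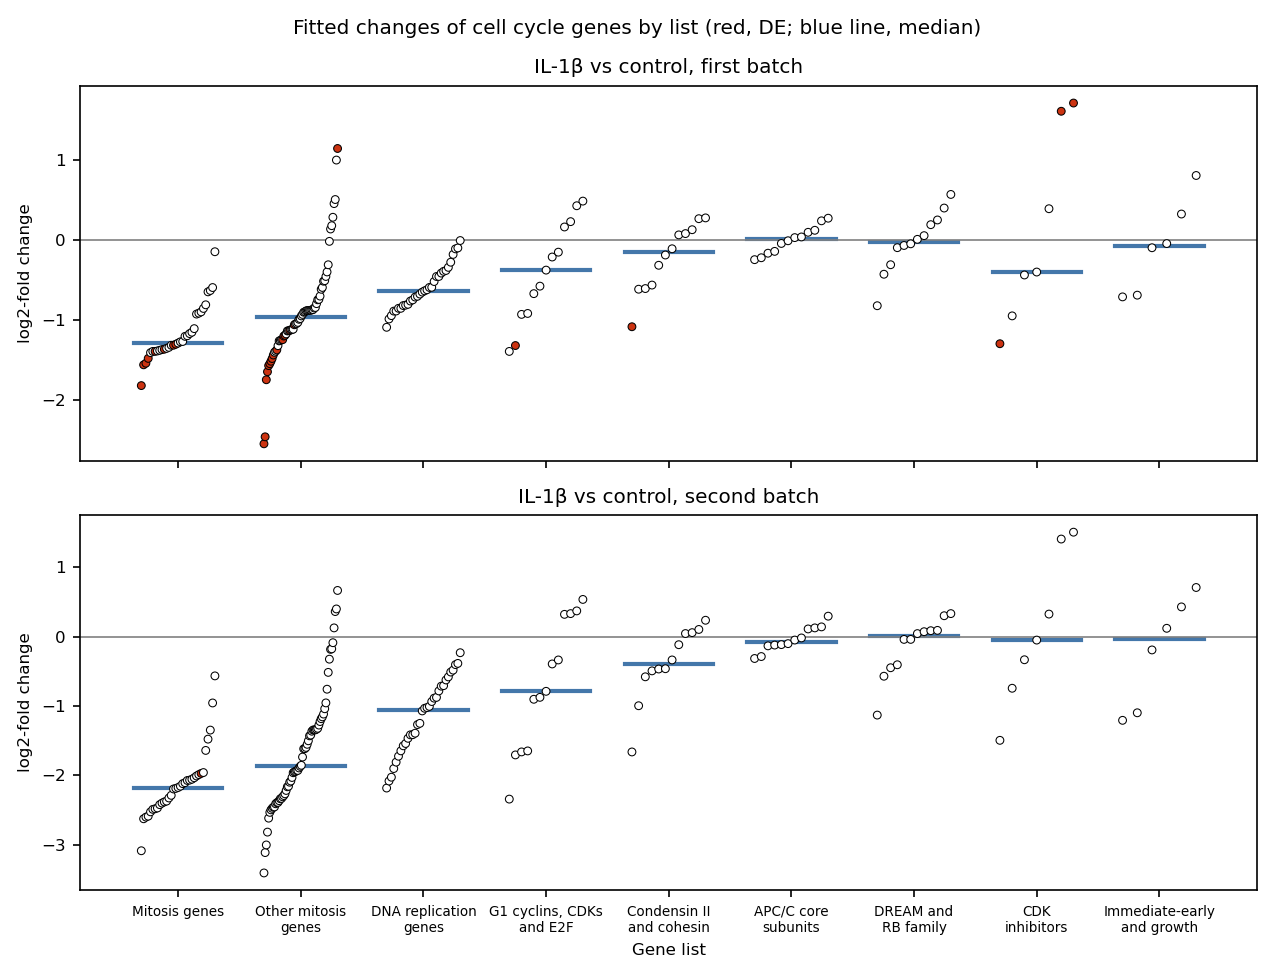
Fitted log2-fold change (y axis) of each gene of the cell cycle lists (x axis, genes sorted within a list) for IL-1β against control in the first batch (top) and second batch (bottom), with DE genes in red and the list median as a blue line. The median is lowest for the mitosis genes (−1.29 and −2.17), then the other mitosis genes (−0.97 and −1.86) and the DNA replication genes (−0.64 and −1.05), and near 0 for the list of APC/C core subunits, which also holds FZR1 (0.01 and −0.08).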

How the data were processed

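The mRNA of 19 libraries (stranded TruSeq kit, NovaSeq) was measured. Salmon was run by the authors against the EquCab3.0 transcriptome, tximport gave gene totals, and DESeq2 1.36 in R 4.2.1 scaled each batch on its own, so the deposited values are a signal on a normalised count scale and not raw counts. Only 30.9% to 61.2% of low values lay within 0.02 of whole multiples of the value of a read, so no count model was fitted. The filter kept genes with 10 or more normalised counts in 5 (first batch) or 3 (second batch) libraries or more. Their log2(normalised count + 1) was tested by limma 3.58.1 in R 4.3.3 (eBayes with trend), without a line block. The 9 libraries of the second batch entered a single fit. All 33 mitosis genes and SMC2 passed the filter.

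The mitosis genes and all lists were chosen with earlier results of these data known. The fits were run on simulated data, in which genes varied independently and with the same spread in each condition. The mitosis genes moved together and their spread differed between conditions, so nothing is concluded from that run. Genes named in full are the 2 tested members of each role with the largest absolute log2-fold change in the first batch, members DE in the second batch, from each other list the 2 DE genes with the largest change, and all CDK inhibitors. Other genes named with values were chosen after their values were seen. Libraries of a line come from the same donor line, so lines pair the libraries: after the mean of each condition was taken off, libraries of a line correlated at 0.351 to 0.578 (first batch, 5 pairs) and 0.535 to 0.794 (second batch, 9 pairs). Between lines it was −0.356 to 0.288 and −0.625 to 0.249, which is partly fixed by taking off the means. The deviations of a condition then sum to 0, so positive correlations within lines bring negative ones between lines. Alternatives were the block, other pseudocounts (0.5 and 5), filters, scalings, no trend, fits on 2 conditions and leaving out each line. All 34 names matched RefSeq symbols of a newer horse assembly, so no coordinates are given. COL3A1, CDKN2A, CCN1 and CCN2 were not analysed here. Without the block the p-values measure the spread between lines within a condition. With the block they measure how the differences within a line vary from line to line.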

Additional observations from a re-analysis of the deposited data

Results flagged for a closer look

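With IL-1β in the first batch SMC2 had 80.1 normalised counts in line 2, far under the other 4 lines (788 to 1368). Its gap to the next library was 0.805 of the range of the group on the log2 scale, above the critical value of 0.71 for 5 values. It was 1 of 70 groups of 5 libraries tested (34 genes and the mean level, in 2 conditions), of which chance alone would mark about 5%. The cause was not tested.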

How the results depend on the processing

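Settings other than the main ones were pseudocounts of 0.5 and 5, no filter or a filter at 50 normalised counts, scaling to equal sums or upper quartiles, no variance trend, the adjusted p alone, only the 2 conditions compared, the tenocyte line as a replicate block and leaving out each line. The block was combined with leaving out a line after the data were seen. Without the block 7 to 11 mitosis genes were DE in the first batch when all lines were kept, and with the replicate block 24. Leaving out a line gave 3 to 7 (21, 19, 24, 23 and 29 with the block for lines 1 to 5). In those fits 833 to 1050 of the 14719 genes tested were DE and lower (1335 to 1488 with the block). In the second batch the block gave 2 for IL-1β and 1 for IL-1β + IL1Ra, the fit on only 2 conditions gave 0 for IL-1β, and leaving out a line gave 0 to 1 for IL-1β (0 to 2 with the block) and 0 to 0 for IL-1β + IL1Ra (0 to 1 with the block). Against IL-1β alone every setting gave 0. The median change ran from −1.56 to −1.09, −3.21 to −1.18, −2.71 to −1.39 and −0.46 to 0.64 in the 4 comparisons when a line was left out. With the block 31 other mitosis genes, 1 DNA replication gene and 2 G1 genes were DE in the first batch, and 6 other mitosis genes, 2 CDK inhibitors and 1 DREAM gene in the second. By the adjusted p alone the first batch had 4 condensin II and cohesin, 7 DNA replication, 2 G1, 5 CDK inhibitor, 2 DREAM and 1 immediate-early genes. Scaling to equal sums or upper quartiles gave 2 and 1 other mitosis genes in the second batch. Leaving out a line gave 8 to 13 other mitosis genes, 0 to 1 condensin II and cohesin, 0 to 2 DNA replication, 0 to 2 G1 and 2 to 3 CDK inhibitor genes in the first batch. Scaling to equal sums moved the median of all genes to −0.19 for IL-1β and 0.11 for IL-1β + IL1Ra against IL-1β in the second batch, where the mitosis genes then had medians of −2.36 and 0.04. Among the 33 mitosis genes AURKA alone changed direction in the comparisons with control: for IL-1β its log2-fold change ran from −0.32 to 0.049 in the first batch (the highest without line 2) and from −1.16 to 0.097 in the second (the highest without line 6) when a line was left out. Leaving out line 3 added MKI67 and TOP2A to the calls of the first batch. The cause of these differences was not tested. Each call of a mitosis gene in the second batch was lost without line 7 or without line 8. In the same fits without the block no gene of the 16705 tested was DE in either comparison with control. With the block 8 genes rose and 3 fell for IL-1β without line 8, and no gene was called otherwise.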

Other observations

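The medians of 3 further lists were near 0 with IL-1β. The list of APC/C core subunits, which unlike CDC20 and UBE2C are present throughout the cycle, also held the co-activator FZR1. These 12 genes had a median log2-fold change of 0.01 with IL-1β in the first batch (range −0.25 to 0.27), with 6 of 12 lower. By limma 0 were DE and 0 had an unadjusted p under 0.05. Their median in the second batch was −0.08 with IL-1β and −0.14 with IL-1β + IL1Ra, again with 0 DE and 0 at an unadjusted p under 0.05 by limma. The 12 genes of the DREAM complex and RB family, the repressors of cell cycle genes, had a median of −0.02 in the first batch (range −0.82 to 0.57) and 0.00 in the second (−1.13 to 0.33), with 0 DE by limma in either batch, 4 and 2 at an unadjusted p under 0.05, and LIN9, a MuvB subunit named after its value was seen, lower with the line as a block in the second. Of 8 immediate-early and growth genes, 6 were found and tested, with a median of −0.07 (first batch) and −0.04 (second batch), 0 DE by limma and 2 and 1 at an unadjusted p under 0.05. Among all genes tested 5814 of 14719 (first batch) and 1907 of 16705 (second batch) had such a p for IL-1β, in either direction. For IL-1β + IL1Ra against control there were 948. The members of these lists were not compared with the mitosis genes by a test.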
